A study of Mus musculus with 2 samples.

Results

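The nuclear genes of the mitochondrial respiratory chain were described by the trimethylation of histone H3 at lysine 4 (H3K4me3) over them. They were the nuclear protein-coding mouse genes in the RefSeq table of the mm10 genome whose symbols name a subunit or assembly factor of complex I (Nduf), complex II (Sdha to Sdhd), complex III (Uqcr), complex IV (Cox4 to Cox8) or ATP synthase (Atp5). This name rule took 96 of 21887 protein-coding genes. H3K4me3 had been mapped by chromatin immunoprecipitation and sequencing (ChIP-seq) in 1 library from NOS1+ neurons sorted from the mouse small intestine, and 1 input chromatin library accompanied it. With 1 library of each kind there was neither a replicate nor a condition to compare, so every comparison below is between genes within 1 peak list and none carries a p-value. NOS1 is the nitric oxide synthase of neurons, and in the gut it marks inhibitory motor neurons among others. The sources used here do not give the strain, age and number of mice or the way the cells were marked for sorting.

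The respiratory chain passes electrons from NADH and succinate to oxygen through complexes I to IV in the inner mitochondrial membrane and pumps protons as it does so, and ATP synthase uses the proton gradient to make ATP. Nearly all subunits are encoded in the nucleus, and a few core subunits are encoded in the mitochondrial genome, which carries no histones. Neurons depend heavily on this pathway, most subunit genes are used in nearly every cell, and some complex IV subunits exist as isoforms that are restricted to muscle, lung or testis. H3K4me3 is a mark of active and poised promoters, and it is laid down most readily where CpG dinucleotides are dense.

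The promoters of isoform pairs that differed in their peaks are shown first. Each stretch is RefSeq sequence of the GRCm38.p6 assembly (mm10 coordinates), printed 5′ to 3′ on the gene's own strand, from 200 bases before the listed start site to 30 bases from it onwards, with CpG dinucleotides in capitals. Cox7a1, the heart and skeletal muscle isoform (chr7:30183971-30184200, plus strand), held 6 CpG, and its widely used counterpart Cox7a2 (chr9:79759824-79760053, minus strand) held 16. Cox8b, also a heart and muscle isoform (chr7:140900417-140900646, minus strand), held 1, and its counterpart Cox8a (chr19:7217587-7217816, minus strand) held 17.
Cox7a1: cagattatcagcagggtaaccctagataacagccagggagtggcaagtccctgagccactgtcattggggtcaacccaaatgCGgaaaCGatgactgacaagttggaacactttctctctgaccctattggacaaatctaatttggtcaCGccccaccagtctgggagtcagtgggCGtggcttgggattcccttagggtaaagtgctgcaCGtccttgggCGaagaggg
Cox7a2: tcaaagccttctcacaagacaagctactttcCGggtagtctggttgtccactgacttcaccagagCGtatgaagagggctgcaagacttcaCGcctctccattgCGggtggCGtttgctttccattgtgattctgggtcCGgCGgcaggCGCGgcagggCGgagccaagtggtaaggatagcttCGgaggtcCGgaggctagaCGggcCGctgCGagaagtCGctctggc
Cox8b: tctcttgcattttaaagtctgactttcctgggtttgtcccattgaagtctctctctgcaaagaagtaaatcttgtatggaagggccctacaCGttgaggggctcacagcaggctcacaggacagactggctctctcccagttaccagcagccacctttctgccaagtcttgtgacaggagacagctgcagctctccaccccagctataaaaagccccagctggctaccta
Cox8a: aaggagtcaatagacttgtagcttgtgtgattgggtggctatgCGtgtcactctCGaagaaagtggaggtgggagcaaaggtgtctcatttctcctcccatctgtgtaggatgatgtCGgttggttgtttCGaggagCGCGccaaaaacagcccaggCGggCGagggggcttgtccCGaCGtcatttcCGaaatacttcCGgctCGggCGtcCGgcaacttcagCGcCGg

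The promoters of the member with the widest peak, Ndufs8, and of a member chosen for its NRF1 motif, Ndufs6, are shown next. Ndufs6 also had the highest score, and the widest peak of Ndufs8 lay beyond its 3′ end. The motifs are those of factors known to drive respiratory chain genes. Here the capitals mark matches to the motifs of NRF1, of GABPA and other ETS factors, or of YY1, whose letters are given with the promoter results. The stretch of Ndufs8 (chr19:3912745-3912974, minus strand) held 1 ETS match, and that of Ndufs6 (chr13:73328453-73328682, minus strand) held 1 NRF1 match.
Ndufs8: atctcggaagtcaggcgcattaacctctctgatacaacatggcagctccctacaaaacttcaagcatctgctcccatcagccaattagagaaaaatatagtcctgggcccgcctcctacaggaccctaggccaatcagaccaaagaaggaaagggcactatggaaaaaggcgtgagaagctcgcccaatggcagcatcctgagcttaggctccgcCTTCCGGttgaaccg
Ndufs6: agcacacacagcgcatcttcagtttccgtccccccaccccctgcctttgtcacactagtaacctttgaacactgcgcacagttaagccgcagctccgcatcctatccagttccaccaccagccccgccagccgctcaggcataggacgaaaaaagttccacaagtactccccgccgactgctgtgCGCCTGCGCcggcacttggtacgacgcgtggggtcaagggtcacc

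Of the 96 genes, 90 had at least 1 H3K4me3 peak over the gene model or within 1 kb of it, which is 93.8% (exact 95% interval 86.9 to 97.7%, for counting over genes only), against 67.0% of all protein-coding genes. A peak lay within 1 kb of an end of the model in 87 of them, 90.6% of the 96 against 61.4% of all protein-coding genes. The RefSeq promoter table listed a start site for 78 of the 96, and 75 of these had a peak within 1 kb of it, 96.2% against 63.0% of all genes with a listed start. The members' models were the shorter ones, with a median length of 7228 bp against 17169 bp for all protein-coding genes. A single peak was found over 51 members, 29 had 2 peaks and 10 had 3 to 5. Of the 144 peaks over members, 27 were narrower than 300 bp.

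The peaks of these genes stood higher in score than in width. Per member with a peak, the widest peak had a median width of 1603.5 bp (middle 50% of members 1283.5 to 1981.5 bp, range 227 to 3811 bp), and over all protein-coding genes with a peak the median was 1515 bp (1064 to 2037 bp). The score that the authors gave each peak, which ranks peaks within this list, had a median of 193.8 for the highest-scored peak per member (middle 50% 162.9 to 226.2, range 10.7 to 279.8) and of 152.6 over all genes with a peak (78.8 to 193.0). The 95% interval of the median over genes was 188.6 to 207.0 for the members and 151.0 to 153.6 for all genes. When the protein-coding genes with a peak were split into 4 equal classes by score, 46 of the 90 members lay in the highest class, 28 in the next, 10 in the third and 6 in the lowest. For width the corresponding counts were 21, 34, 18 and 17. A peak among the best-scored 25% of the whole list was present at 79 of the 96 members, 82.3%, and at 37.3% of all protein-coding genes. No member reached the top of the list, since 80 protein-coding genes scored above Ndufs6, the highest-scored member.

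**Figure D1:**
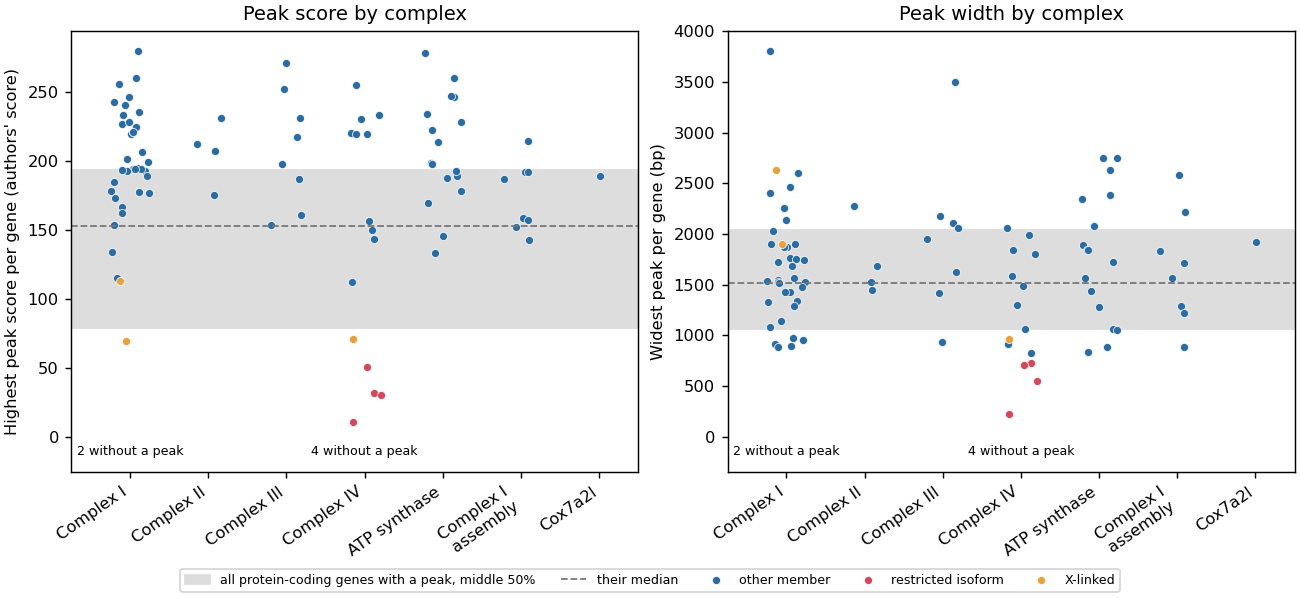
Highest peak score per gene (left, authors' score) and width of the widest peak per gene (right, bp) for each respiratory chain gene with a peak, grouped by complex; each point is 1 gene, spread sideways for legibility. The grey band is the middle 50% of all protein-coding genes with a peak and the dashed line their median (152.6 and 1515 bp); most members lie above the line in score, the 4 restricted isoforms with a peak lie at 10.7 to 50.8, and the X-linked genes at 69.5 to 113.1.

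The list as a whole held 29924 peaks over 28.7 Mb on 21 chromosomes, with scores from 2.0 to 702.6 and a median width of 690 bp, and it held 0 peaks on the mitochondrial chromosome, so the subunits encoded there were not part of this description. The labelled cell type was set against its markers. Peaks lay at the neuronal genes Elavl4 (highest score 96.9) and Uchl1 (60.5) and at the enteric neuron regulators Ret (59.2) and Hand2 (147.9), whereas Nos1 itself had only a peak of 183 bp (score 13.0) inside its model and Vip had none. Of 7 markers of the sorted cells 6 had a peak somewhere over the model (85.7%), and of 14 markers of other gut wall cells 11 did (78.6%). The share over all protein-coding genes was 67.0%. The markers of other gut wall cells had a median score of 26.9 and a highest score of 85.9 (Sox10, a glial gene), so the scores of the neuronal and the other markers overlapped. The part of such cells in the values of the respiratory chain genes was not tested.

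Complex I, the NADH dehydrogenase, had peaks at 37 of its 39 subunit genes. Their median width was 1563 bp, their median score was 194.3, and 33 of the 39 had a best-scored peak. Among the core subunits that carry electrons, Ndufv1, which binds NADH and flavin, had a highest score of 221.0. Ndufv2, an iron-sulphur protein, had start peaks scoring 185.8 and 104.0, and its highest score, 246.3, was that of a peak beyond its 3′ end, at an end of Ankrd12. The iron-sulphur subunits Ndufs1, Ndufs7 and Ndufs8 had highest scores of 206.2, 133.9 and 184.6. Ndufs3, which forms part of the arm that hands electrons to ubiquinone, scored 219.0. The highest score of all members belonged to an accessory subunit, Ndufs6 (279.8 over 1288 bp), followed within complex I by Ndufc1 (259.7 over 972 bp) and Ndufb5 (255.7 over 912 bp), so high scores also occurred at narrow peaks. The peaks of Ndufs6 and Ndufb5 also lay at an end of a neighbour, Mrpl36 and Mrpl47, and that of Ndufc1 did not.

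The 3 widest peaks of complex I each reached an end of a neighbouring gene. The widest peak of any member, 3811 bp over the window of Ndufs8, lay beyond its 3′ end, at an end of Tcirg1. Within 1 kb of the start of Ndufs8 there were 3 narrower peaks, of 599 bp (score 184.6), 659 bp (score 123.2) and 153 bp (score 3.45). The next widest, 2632 bp at Ndufb11 and 2603 bp at Ndufs1, covered an end of the member's own model. They also lay at an end of a neighbour, Rbm10 and Eef1b2. At the narrow end were the accessory subunits Ndufa3 (883 bp), Ndufa2 (898 bp) and Ndufb5 (912 bp). The 2 complex I genes without a peak were Ndufb4b and Ndufb4c, with models of 471 and 485 bp, which are named after Ndufb4. Ndufb4 itself had one of 1088 bp scoring 153.4.

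All 4 genes of complex II, the succinate dehydrogenase, had a best-scored peak, with a median width of 1603 bp. Sdha, the flavoprotein that binds succinate, had a peak of 1682 bp scoring 230.7. Sdhb, the iron-sulphur subunit, had one of 1453 bp scoring 207.0. The membrane anchors Sdhc and Sdhd had peaks of 1524 bp (175.2) and 2280 bp (211.8). The 4 genes thus lay between 175.2 and 230.7, all above the median of all genes with a peak.

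Complex III, the cytochrome bc1 complex, likewise had a best-scored peak at 8 of 8 genes, with medians of 2006 bp in width and 207.6 in score. The core proteins Uqcrc1 and Uqcrc2 scored 270.8 and 217.4, and the Rieske iron-sulphur protein Uqcrfs1 scored 231.1. Uqcrc1 combined the highest score with the narrowest peak of the complex, 940 bp. The widest, 3498 bp at the hinge protein gene Uqcrh, also covered the start of Lrrc41, which is transcribed the other way from 199 bp upstream. Uqcr10 and Uqcrc2 followed with 2181 and 2105 bp. Uqcrb had a peak of 1419 bp. The lowest score in complex III was 153.5, at Uqcr11.

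Complex IV, the cytochrome c oxidase, was the complex with the most varied values, and it holds the restricted isoforms. Of its 19 genes 15 had a peak, with medians of 1065 bp and 149.8, and 9 of 19 had a best-scored peak. Without the 8 restricted isoforms 11 of 11 genes had a peak, with medians of 1483 bp and 219.0. Among the widely used subunits without a restricted isoform, Cox5a, Cox5b and Cox6c scored 219.3, 230.5 and 219.0, and Cox7c scored 156.3. Ndufa4, which was first assigned to complex I and is a complex IV subunit, had a peak of 1993 bp scoring 149.8. Cox5a and Cox7a2 had no peak within 1 kb of the ends of the model, since their models begin upstream of the start sites at which the peaks lay.

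For ATP synthase 17 of 17 genes had a peak and 16 of 17 a best-scored one, with medians of 1843 bp and 198.3. The subunits of the catalytic head are alpha (Atp5a1), beta (Atp5b), gamma (Atp5c1), delta (Atp5d) and epsilon (Atp5e), and their highest scores were 246.2, 187.8, 228.2, 169.3 and 192.4. The 3 genes that encode the same membrane ring subunit c differed, with 145.1 at Atp5g1, 198.3 at Atp5g2 and 233.8 at Atp5g3. The highest score of the complex was that of the stalk subunit b, Atp5pb (277.8 over 2347 bp), and the lowest that of Atp5k, a small membrane subunit (132.9). The Atp5pb peak also lay at an end of Wdr77. The widest peaks were 2752 bp at Atp5b, 2746 bp at Atp5c1 and 2632 bp at Atp5j, each also at an end of another gene (Baz2a, Kin and Gabpa). For Atp5b the peak at its own start was 1343 bp wide with a score of 180.9. The narrowest were Atp5mpl (833 bp), Atp5o, the stalk subunit that confers oligomycin sensitivity (882 bp), and Atp5l (1052 bp). Atp5d had the most peaks of any member, 5.

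The 8 complex I assembly factors, which help to build the complex and are not part of it, all had a best-scored peak. Their median width was 1639.5 bp and their median score 172.7. Ndufaf3 (2579 bp), Ndufaf5 (2216 bp) and Ndufaf7 (1829 bp) had the widest peaks, each also at an end of another gene. Ndufaf8 (887 bp), Ndufaf6 (1217 bp) and Ndufaf1 (1294 bp) had the narrowest. Scores ran from 142.9 at Ndufaf5 to 214.3 at Ndufaf8. The latter was that of a peak upstream of the Ndufaf8 start, on the side of Tepsin. The peak over the Ndufaf8 start itself scored 182.4. Cox7a2l, which joins complexes III and IV into supercomplexes, matched the name rule and was kept apart from complex IV, and it had 1 peak of 1923 bp with a score of 188.6.

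The isoforms restricted to other tissues or conditions had the lowest values of all members. Of the 8 restricted isoforms, 4 had a peak (50%, exact 95% interval 15.7 to 84.3%). Their medians were 630.5 bp and 31.0, and 0 of 8 had a best-scored peak. Over all protein-coding genes 67.0% had a peak, which lies inside that interval, and 37.3% had a best-scored one. All 7 widely used counterparts had a peak, with medians of 1801 bp and 149.8, and 5 of 7 had a best-scored one. The 2 groups did not overlap in score, with 50.8 as the highest restricted value and 70.8 as the lowest counterpart.

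Pair by pair, the lung isoform Cox4i2 had a single peak of 227 bp that scored 10.7, and Cox4i1 had one of 2059 bp that scored 220.1. The Cox4i1 peak also lay at ends of Emc8 and Gm27021. For the heart and skeletal muscle isoforms, Cox6a2 had no peak against 1840 bp (254.8) at Cox6a1. Cox8b had none against 1801 bp (233.3) at Cox8a. Cox7a1 had 555 bp (30.1) against 827 bp (143.0) at Cox7a2, where a second peak of 774 bp (121.3) lay on the other side of a break. The restricted member was thus the lower one of each of these pairs.

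Among the testis isoforms, Cox7b2 and Cox8c had no peak, while their counterparts Cox7b and Cox8a had scores of 70.8 and 233.3. Cox6b2 had a peak of 725 bp (31.9), at a place that is also an end of Fam71e2, and Cox6b1 had one of 917 bp (112.2). Which of these neighbouring genes the peak at Cox6b2 belongs to cannot be told apart from the positions. Ndufa4l2, the hypoxia-induced relative of Ndufa4, had 4 peaks, the widest of 706 bp with a score of 50.8 inside the model, against 149.8 at Ndufa4. The Ndufa4 peak also lay at an end of Phf14. Cyct, the testis form of cytochrome c, had no peak, and Cycs, the form used in other tissues, had one of 1029 bp with a score of 250.9.

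Markers of striated muscle and testis, where 6 of the restricted isoforms are used, were low or without peaks. Of 4 striated muscle genes, Myh6 and Myh7 had no peak, Ckm had one of 464 bp (37.3) and Acta1 one of 213 bp (5.29). Of the 3 testis genes Prm1, Prm2 and Tnp1, 0 had a peak. Over all protein-coding genes 67.0% had a peak, and both lists are small. Promoter CpG also moved with the split. The 4 restricted isoforms in the promoter table held 2 (Cox8b), 7 (Cox7a1), 10 (Cox6b2) and 10 (Cox7b2) CpG in 300 bases, whereas Cox6a1, Cox8a, Cox7a2 and Cox6b1 held 32, 19, 20 and 17. Ndufa4 held 14, near the median of all windows, 13. Cox7b was the exception among the counterparts, with 5, below the 10 of its restricted partner Cox7b2. The part of CpG density in the difference was not tested.

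**Figure D2:**
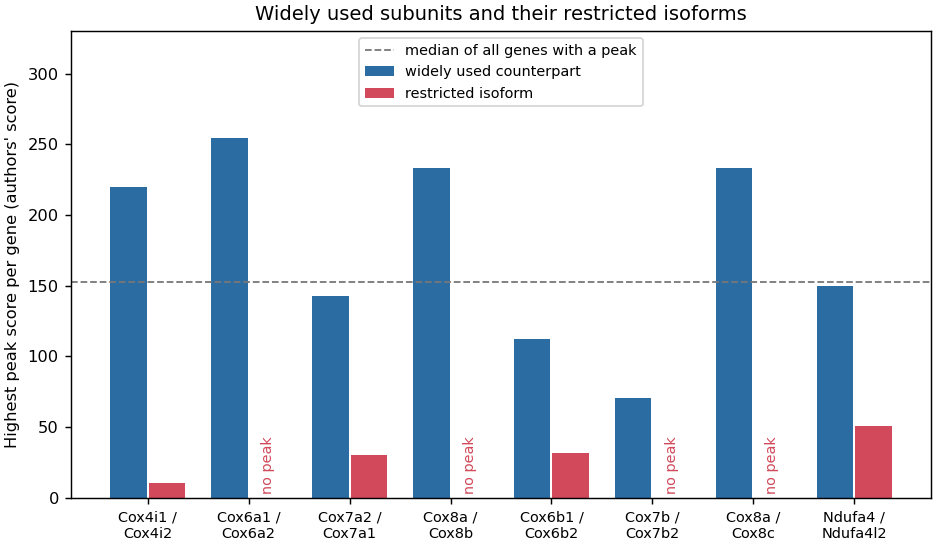
Highest peak score (authors' score) of each restricted isoform (red) beside its widely used counterpart (blue), 1 bar per gene; Cox8a is drawn for both Cox8b and Cox8c. The dashed line is the median of all protein-coding genes with a peak, 152.6; 4 restricted isoforms had no peak and the others reached 10.7 to 50.8, below every counterpart.

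Outside the restricted isoforms, the lowest scores belonged to genes on the X chromosome. Ndufa1 (69.5) and Cox7b (70.8) were the only widely used members below 100, and Ndufb11 scored 113.1. Of the 83 widely used autosomal members, 0 scored below Ndufa1 or Cox7b, and 1, Cox6b1 (112.2), scored below Ndufb11. Scores of X-linked genes were low in general in this list. The median highest score was 70.8 for the 478 X-linked protein-coding genes with a peak and 155.2 for autosomal ones, and only 3 of 966 X-linked genes had a best-scored peak. Within the X chromosome Ndufb11 ranked 25 of 478, Cox7b 237 and Ndufa1 242. In width Ndufb11 and Ndufa1 were not low, with 2632 and 1900 bp, each at a place that is also an end of a neighbour (Rbm10 and Rnf113a1). The comparison with the X chromosome was added after the values were seen, and the sources used here do not give the sex of the mice.

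The promoter table allowed the peaks to be placed on the gene's own strand. At the 75 members with a peak at the listed start, the widest start peak had a median width of 1563 bp, against 1504 bp for all genes with a start peak. It began at a median of 573 bp upstream of the start (454 bp for all genes) and ended at a median of 1026 bp downstream (1013 bp). Where a gene had more than 1 listed start, the one with the most peak bases within 1 kb was used. The start itself lay in a peak at 66 of the 75 members and outside any peak at 9, and 12.1% of all genes with a start peak had it outside. Atp5d, counted as outside, has another listed start that lies in a peak.

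**Figure D3:**
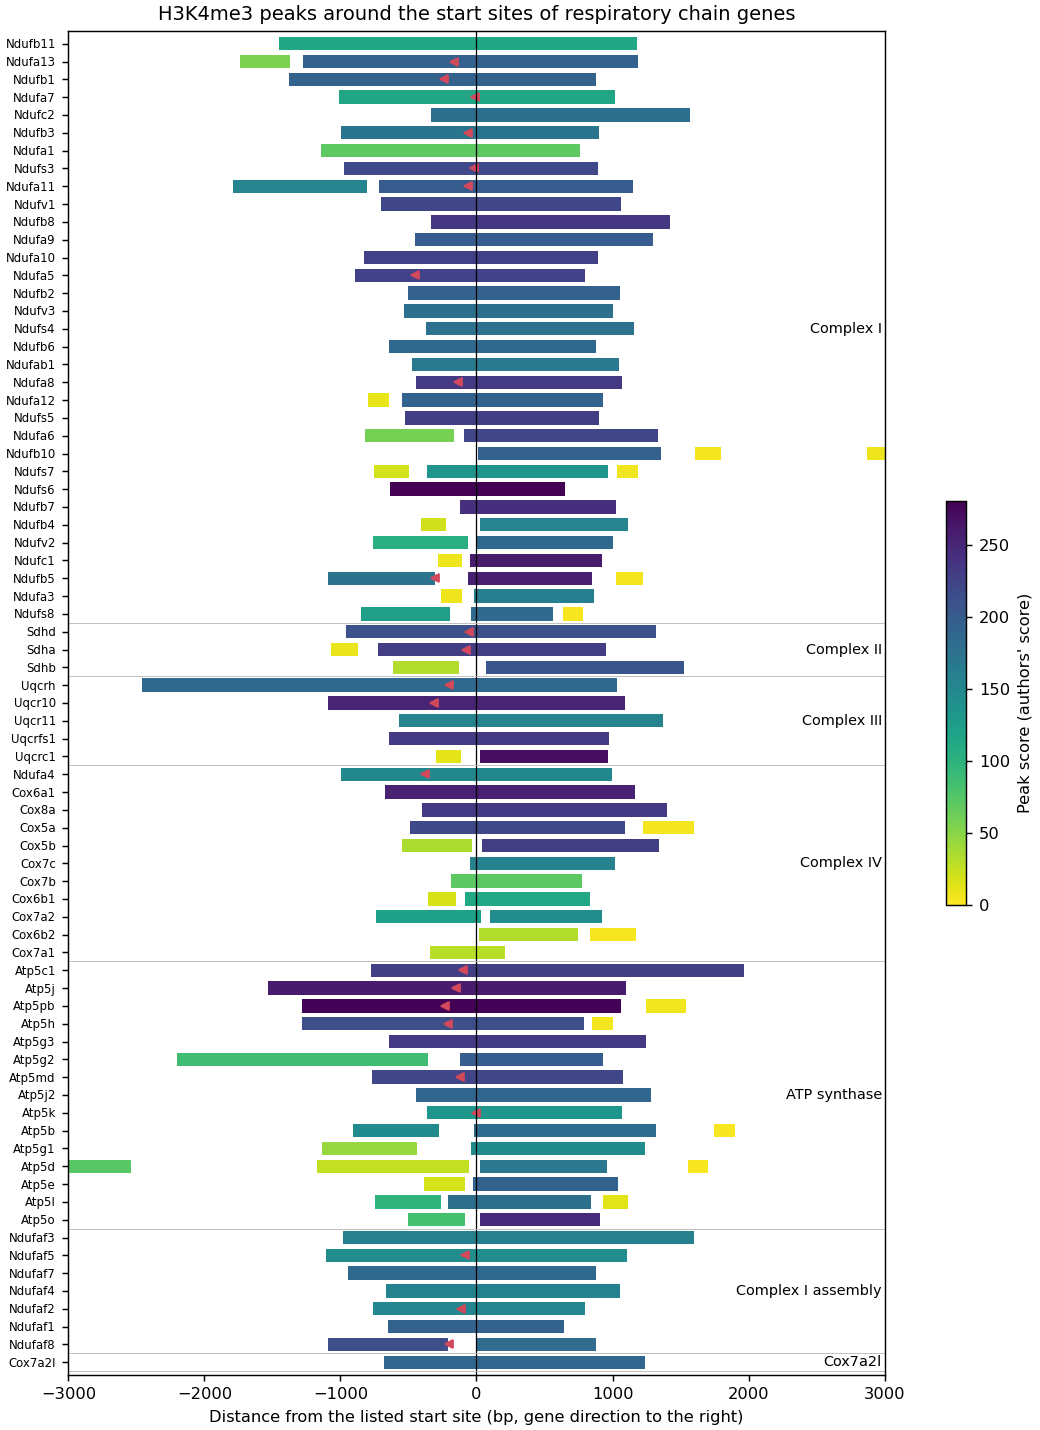
Peaks within 3 kb of the listed start site (0, gene direction to the right) of each respiratory chain gene with a peak there, 1 line per gene, ordered by complex and then by the width of the start peak; the colour is the authors' score. Red arrowheads mark the start of a gene transcribed the other way. Most peaks begin upstream of the start and end about 1 kb downstream, and 20 of the genes have a gap between peaks near the start.

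The downstream edges of these peaks lay close together. For the 73 members other than restricted isoforms, every position tested from 100 to 500 bp downstream of the start was in a peak at 100% of the genes, and at 500 bp 89.3% of the 10949 other genes with a start peak were covered. At 750 bp the shares were 97.3% and 77%. At 1000 bp they were close, 60.3% and 55.5%, and beyond that the order turned, with 21.9% and 35.8% at 1250 bp and 8.22% and 23.1% at 1500 bp. At 2000 bp downstream 0% of the members and 10.8% of the other genes were covered. Upstream at 500 bp the shares were 72.6% and 58.6%. These shares describe 1 library, and with no replicate no spread can be given for them.

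**Figure D4:**
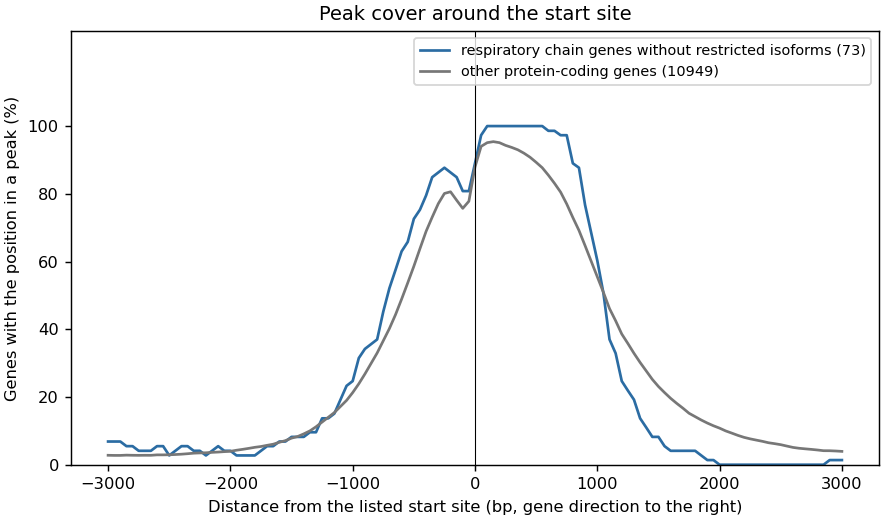
Share of genes (%) whose position at a given distance from the listed start site (bp) lies in a peak, in steps of 50 bp, for 73 respiratory chain genes (blue) and 10949 other protein-coding genes with a peak at the start (grey). The blue line stands above the grey one from 1000 bp upstream to 1000 bp downstream and below it from 1050 bp downstream to 2000 bp, the lines cross repeatedly farther upstream, and both dip just upstream of the start.

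Some of the promoters were split between 2 peaks. A gap between peaks within 300 bp of the start was present at 20 of 75 members, 26.7% against 22.7% of all genes with a start peak, which is close to the background. The gaps were 53 to 396 bp long, with a median of 99.5 bp (124 bp for all genes), and the centre lay upstream of the start in 18 of 20 members (90%) and in 89.2% of other genes with a gap. By complex, 7 of 15 ATP synthase genes and 7 of 33 complex I genes had one. At Atp5e and Atp5l the gap was 53 bp, at Ndufc1 it was 54 bp, and at Atp5g1 it was 396 bp. At Uqcrc1 the highest-scored peak, with 270.8, lay just downstream of a gap of 141 bp. At Atp5g2 the widest start peak lay upstream, 1845 bp with a score of 85.9, and a narrower downstream peak scored 198.3. The window of 300 bp was chosen after the values were seen.

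Many of these genes shared a promoter region with a neighbour. Another gene, coding or not, was transcribed the other way from a start within 1 kb upstream of 23 of the 78 members with a listed start, 29.5% against 13.2% of all such genes. The distance between the starts was 2 to 454 bp, with a median of 135 bp, and the shortest was that of Atp5k to the long non-coding RNA gene Gm34319. Such pairs occurred at 9 of 34 complex I genes, 2 of 3 complex II genes, 2 of 5 complex III genes, 1 of 13 complex IV genes, 6 of 15 ATP synthase genes and 3 of 7 assembly factor genes. Sdhd lay 52 bp from Timm8b, a protein of mitochondrial import, and Ndufb5 lay 308 bp from Mrpl47, a mitochondrial ribosomal protein gene. Atp5j, a stalk subunit gene of ATP synthase, lay 148 bp from Gabpa, which encodes a factor known to drive respiratory chain genes, and 1 peak of 2632 bp (chr16:84833879-84836510, score 259.7) covered both starts. Other partners were the ribosomal protein gene Rps28 at Ndufa7 (10 bp) and Ccdc127 at Sdha (77 bp).

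All 23 members with a divergent partner had a peak at the start, 18 of them a single one. Their widest start peak had a median of 1993 bp, against 1466.5 bp for the 50 widely used members without a partner. The difference lay on the upstream side, where the peak reached a median of 996 bp against 448 bp, while downstream it reached 1036 bp against 1031.5 bp. In other genes the corresponding medians were 1682 and 1460 bp, with upstream reaches of 869 and 402.5 bp. A gap at the start was present at 2 of 23 members with a partner (8.7%) and at 18 of 50 without one (36%), and in other genes the order was the opposite, 30% with a partner and 20.9% without. Counting either end of any neighbour, the widest peak of 43 of the 90 members with a peak lay within 1 kb of an end of another protein-coding gene, 47.8% against 24.5% of all genes with a peak. Part of the width and score of these peaks therefore cannot be told apart from that of the neighbour.

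The promoter windows of 300 bases, from 250 before to 50 from the start onwards, were searched for motifs on both strands. The 78 members had 83 windows, since 5 had 2 listed starts. Among those without a listed start were Ndufs1, Ndufa2, Ndufb9, Ndufb4c, Ndufa4l2, Ndufaf6, Sdhc, Uqcrb, Uqcrc2, Uqcrq, Cox4i1, Cox4i2, Cox6a2, Cox6c, Cox8c, Atp5a1 and Atp5mpl. The members held a median of 20 CpG per window, the same as the median of windows of all genes with a start peak, whereas all windows had a median of 13 and those of genes without a start peak 3.

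The motif of NRF1, a factor named for its role in nuclear genes of respiration (GCGCANGCG), was found in 23 of 83 windows, 27.7%, against 12.4% of windows of genes with a start peak and 8.58% of all windows. It occurred at 22 genes, among them 7 of 15 ATP synthase genes, 8 of 34 complex I genes, 2 of 3 complex II genes (Sdha and Sdhd), 2 of 5 complex III genes (Uqcrc1 and Uqcr11), 1 of 13 complex IV genes (Cox6a1) and 2 of 7 assembly factor genes. Ndufs6 is one of the complex I genes, and its match stands in capitals in the stretch printed above.

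The ETS motif CCGGAAG, which GABPA and related factors bind, was in 22.9% of member windows, 16.1% of windows with a start peak and 11.6% of all windows. It occurred at Cox8a, Sdhb, Uqcrh and Ndufs8, where it stands in capitals above as its reverse complement, and at Atp5j, next to the gene of GABPA itself. The YY1 motif AAGATGGCG was in 9.64%, 2.67% and 1.83% of the 3 sets, at Ndufs6, Ndufs7 and Ndufc1 among others. The YY1 match of Ndufs6 is in the window of 300 bases but not within the shorter stretch printed above. The motif of the oestrogen-related receptors, TCAAGGTCA, was rare in all sets (2.41%, 0.240% and 0.334%) and occurred at 2 members, Atp5g3 and Sdhd. At least 1 of the NRF1, ETS and YY1 motifs was in 41 of 83 windows, 49.4%, against 27.6% with a start peak and 19.6% of all.

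The motifs of more general promoter factors did not follow the same order. GGGCGG, bound by SP factors, was in 43.4% of member windows, below the 63.3% of windows with a start peak and near the 46.2% of all windows. CCAAT, bound by NF-Y, was in 42.2%, 37.2% and 38.2%, and TATAAA, the TATA box, in 10.8%, 6.99% and 12.6%. Both restricted muscle isoforms in the table, Cox7a1 and Cox8b, held no match to the NRF1, ETS and YY1 motifs in these windows, and neither did the widely used Cox7a2 and Ndufa4. Cox8b held TATAAA. Motifs were counted separately and matches of different motifs can overlap. A match is a stretch of letters and not a measured binding site.

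**Figure D5:**
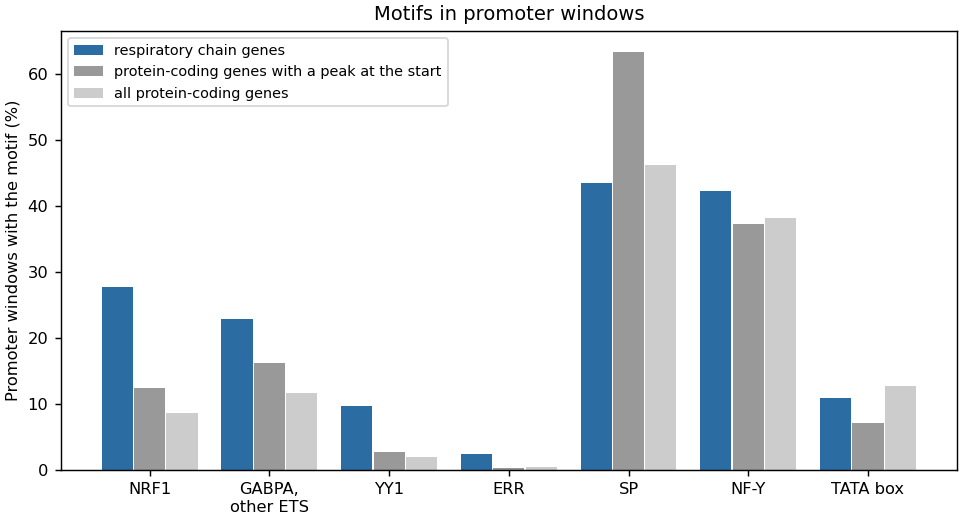
Share of promoter windows (%) that hold each motif at least once on either strand, for 83 windows of respiratory chain genes (blue), 14180 windows of protein-coding genes with a peak at the start (dark grey) and all 21263 windows of protein-coding genes (light grey). The members have the highest of the 3 shares for NRF1, the ETS factors, YY1, ERR and NF-Y, and the SP bar of the members is below that of the genes with a peak.

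The other genes of the pathway were marked as well. All 38 assembly factors of complexes I to IV and ATP synthase outside the name rule had a peak, with medians of 1377.5 bp and 176.7, and 32 of 38 had a best-scored one. Over all protein-coding genes 67.0% had a peak and 37.3% a best-scored one. The widest were Cox20 (3316 bp), Coa5 (2198 bp), Surf1 (2137 bp) and Tmem126b (2000 bp), each at an end of a neighbour. All 5 electron carrier genes outside the name rule had a peak, among them Cyc1, the cytochrome c1 of complex III (1614 bp, 186.4).

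The regulators listed had a wider median peak than the respiratory chain genes themselves. The list joined factors that act on these nuclear genes with factors that transcribe or copy the mitochondrial genome. The latter were Tfam, Tfb1m, Tfb2m, Polrmt, Mterf1a and Polg, and the medians cover both kinds. All 14 had a peak, with medians of 2474 bp and 185.1, and 11 of 14 had a best-scored one, against 67.0% and 37.3% of all protein-coding genes. The coactivators Ppargc1b and Ppargc1a, which drive mitochondrial biogenesis, had peaks of 4262 and 3436 bp with scores of 183.8 and 105.8. Gabpb1, the partner of GABPA, had one of 2780 bp, and Nrf1 and Yy1 had 2136 and 2625 bp. Mterf1a, a mitochondrial transcription termination factor, had the lowest score of the list, 50.6, and a peak of 492 bp. Polrmt (541 bp), Tfb1m (1030 bp) and Tfam (1330 bp) also had peaks narrower than the median of the respiratory chain genes, 1603.5 bp. The Gabpa peak of 2632 bp is the one also counted for Atp5j, and the widest peaks of Esrra and Tfb2m lay at ends of neighbours.

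Ribosomal protein genes and mitochondrial carrier genes (Slc25) were set beside the respiratory chain genes. Of 85 ribosomal protein genes 82 had a peak (96.5%), with medians of 1631 bp and 180.0. Of 47 carrier genes 41 had one (87.2%), with medians of 1366 bp and 169.3. The median score of the respiratory chain genes, 193.8, was above both, and their median width was between those of the other groups. The 95% interval of the median score was 170.0 to 191 for ribosomal protein genes, which overlaps the 188.6 to 207.0 of the respiratory chain genes. For carrier genes it was 135.6 to 180.7, which does not overlap it. A best-scored peak was present at 82.4% of ribosomal protein genes and 55.3% of carrier genes. The shares were 82.3% for the respiratory chain genes and 37.3% for all protein-coding genes. No test of these differences was possible with 1 library. Pseudogenes named after members were mostly unmarked, with a peak at 1 of 19 (5.26%) against 3.04% of all 10609 annotated pseudogenes, and the exception, Atp5l2-ps, had its peak of 1311 bp at an end of Cwc25.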

How the data were processed

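The data were the deposited peak list of 1 H3K4me3 ChIP-seq library from sorted NOS1+ neurons of the mouse small intestine. Per the file headers, MACS2 called the peaks from paired-end reads, and BWA, Picard, MACS2 and the build mm10 are named in the submitters' processing notes without versions or roles. The authors' score in the deposited list has no stated scale, so it served to rank, filter and describe peaks of this list alone. The sources used here do not give the threshold or the treatment of duplicate reads. The list holds no read counts, so the depth is unknown, and low depth loses or splits weak peaks first. No values of the input library were used here.

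Gene models and start sites came from RefSeq tables on GRCm38.p6, whose coordinates are those of mm10. A gene was counted as marked when a peak overlapped its model, or the 1 kb to either side, by 1 bp or more. A peak was said to lie at an end of another gene when that end was inside it or within 1 kb of it. Best-scored peaks were the 25% with the highest scores (140.8 and above). Shares carry exact Clopper-Pearson 95% intervals, and intervals of medians come from order statistics. Both cover counting or spread over genes, not animals or libraries. Python 3.11.15, pandas 2.3.3, numpy 2.4.6, scipy 1.17.1 and matplotlib 3.10.9 were used, and the code was tested on simulated peaks.

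The members, lists and isoform pairs were chosen with earlier results of these data known. The rule for named genes took members without a peak, isoform pairs, core subunits, the 3 widest and 3 narrowest per complex, the 5 highest and 5 lowest scores, genes with peaks away from both ends, and up to 4 examples of each other list. The remaining genes named with a start gap, a divergent partner, a motif or a place on the X chromosome were chosen after their values were seen. So were the other members named for their role, the other regulators named and the second isoform pair whose promoters are printed. The alternatives tried were 3 stricter peak sets, other windows and overlaps, genes without near neighbours, merged peaks, subunits only and autosomal members only. Some genes enter the counts without being named in the text.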

Additional observations from a re-analysis of the deposited data

How the results depend on the processing

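Under the alternative settings 120 values moved by less than the counting interval or factor set for them, and 6 moved by more. With the best-scored 25% of peaks 82.3% of members (all genes 37.3%) had a peak, as did 9 complex IV genes and 0 restricted isoforms. With the best-scored 50% 1 restricted isoform, Ndufa4l2, had a peak. The median widest peak was 1439 bp at the 28 members with a peak and no other gene's end within 2 kb (all such genes 1436 bp), and 1851.5 bp with peaks closer than 1 kb merged (all genes 1816 bp), so the width of the members stayed near that of all genes under both settings. The median score of the members lay between 192.4 and 198.3 under every alternative run and above that of all genes, which lay between 133.3 and 188.8. The gap was smallest with the best-scored 25% of peaks, 198.3 against 188.8. Autosomal members alone, an alternative chosen after seeing the data, gave 194.3. No paired analysis was possible because the series has 1 immunoprecipitated library and no result comes from a test. The unknown depth limits what a missing peak means. For example, the only peak over Cox4i2, 227 bp wide, is near the narrowest peak listed, 153 bp.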
